A study of Mus musculus with 18 samples.

Results

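MK5-depleted C2C12 cells were compared with control cells after 2 days in differentiation medium (DM2). The comparison was made of 6 of the 18 libraries in the series, chosen by their labels: 3 from a stable line transfected with px459-Mk5sg and 3 from a stable line transfected with a control plasmid. C2C12 cells are mouse myoblasts, an established line that divides in growth medium (GM) and forms multinucleate myotubes when the medium is changed. The series also holds both lines in GM and another line, transfected with px459-Mapk6sg and labelled as depleted of ERK3, in GM and at DM2, with 3 libraries in each group. The px459 plasmid carries Cas9 and a guide RNA, and the labels give the gene that the guide targets but not whether a stable line is 1 clone or a pool. Nothing in them states that the libraries of a group are separate cultures, so a p-value here speaks only of the spread among these libraries.

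MK5 is a serine/threonine kinase encoded by Mapkapk5, and it is activated by binding ERK3, an atypical MAP kinase encoded by Mapk6. FoxO3, the transcription factor that the series' title places downstream of the pair, drives genes of atrophy, autophagy, glucose sparing and cell cycle exit. Differentiating myoblasts normally leave the cell cycle, switch on myogenin and the sarcomeric genes, and fuse.

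The 6 libraries held 24.96 to 27.39 M reads each, and 18.87 to 21.34 M reads fell in genes. The first component of the DM2 libraries, with 63.6% of the variance, placed the control libraries at 44.7 to 50.5 and the MK5-depleted libraries at -24.3, -19.0 and 6.26, so MK5-depleted libraries 1 and 2 stood apart from library 3. Libraries 1 and 2 also had the most reads outside genes (3.96 and 4.11%, against 2.84% in library 3 and 2.44 to 3.05% in the controls). Multimapping reads made up 16.5 to 19.1% of the MK5-depleted and 14.5 to 14.8% of the control libraries. Results are therefore also given with MK5-depleted library 3 alone against the controls, where the lone library is taken to vary like the other groups. The muscle label was borne out in both lines: Myod1, which commits cells to muscle, stood at 183, 218 and 201 CPM in the controls and 176, 188 and 210 CPM in the MK5-depleted libraries, where CPM are counts scaled to library size with TMM factors. Myog, encoding myogenin, stood at 493, 615 and 670 CPM and at 435, 370 and 623 CPM, and its groups overlapped.

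Mapkapk5, the gene targeted by the guide (GRCm38 chromosome 5, 121525038 to 121545905, minus strand), is weakly covered by the gene counts. It overlaps Gm42878 on the same strand, and the part of that overlap in the low counts was not tested. Mapkapk5 had 32, 22 and 28 reads in the control libraries and 16, 11 and 18 in the MK5-depleted libraries. Its log2 fold change was -0.68 ± 0.26 (SE, adjusted p 0.0443), and the groups did not overlap. The call was lost with DESeq2, without filtering of low counts, with RSEM expected counts where it was -0.08, and with library 3 alone. It was also lost without MK5-depleted library 1 or 2, without control library 1 or 3, in a fit of the 6 libraries alone and with the percentage of reads outside genes in the model. The authors' RSEM values, which share overlapping reads between genes, gave 70.3, 65.6 and 71.7 TPM in control and 42, 47.3 and 58 TPM in MK5-depleted libraries. These TPM were not scaled further, and the median difference over all genes on TPM was itself -0.29 on the log2 scale. The ERK3-depleted DM2 libraries, whose guide targets Mapk6, held 13, 17 and 15 Mapkapk5 reads (56.5, 45.2 and 66 TPM). The MK5-depleted line differed from them by -0.107 ± 0.285 (adjusted p 0.868), so low Mapkapk5 reads were seen in both depleted lines. Transcript reads over an edited gene do not measure the protein, so the depletion itself was not tested. Among its partners, Mapk6 stood at 219, 207 and 204 CPM in control and 161, 153 and 163 CPM in MK5-depleted libraries, a fall by 0.40 ± 0.12 on the log2 scale (adjusted p 0.0115) that was not called with length and GC offsets or with library 3 alone. Foxo3 stood at 69.3, 72.4 and 66.8 CPM against 47.3, 51.9 and 52.5 CPM, without overlap, and fell by 0.46 ± 0.09 (adjusted p 0.000643). Of 21 tested genes of the ERK3, MK5 and p38 kinases 4 were called higher and 6 lower, beside 22.2% higher and 22.9% lower among all genes tested (4 and 3 with length and GC offsets, 3 and 2 with library 3 alone). Mapk12, encoding the muscle p38 gamma, rose by 0.74 ± 0.12 (adjusted p 0.000189), Hspb1, a small heat shock protein phosphorylated by kinases of the MK5 family, by 0.81 ± 0.12 (adjusted p 6.18e-05), and Mapk4, encoding the ERK3 relative ERK4, by 1.17 ± 0.30 (adjusted p 0.00417, not called with library 3 alone).

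Of 13939 genes tested 6288 (45.1%) were called at an adjusted p under 0.05 by the edgeR quasi-likelihood test, 3098 higher and 3190 lower in the MK5-depleted libraries. Most differences were small: 1446 higher and 1322 lower genes passed 1.5-fold, 556 and 425 passed 2-fold, and 156 and 44 passed 4-fold. The 6 libraries of the 2 groups did not overlap for 7930 genes (56.9%). On the deposited TPM, compared without further scaling, the median over all genes was -0.29 on the log2 scale and the split was 1034 higher and 5779 lower. A direction stated for a group of genes is therefore relative to the median gene. List medians on TPM are to be read against -0.29, and list counts on TPM against the 1034 higher and 5779 lower genes. List counts given without another setting are to be read against the 22.2% higher and 22.9% lower of all genes. With MK5-depleted library 3 alone 3042 genes were called, 1516 higher and 1526 lower.

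**Figure D1:**
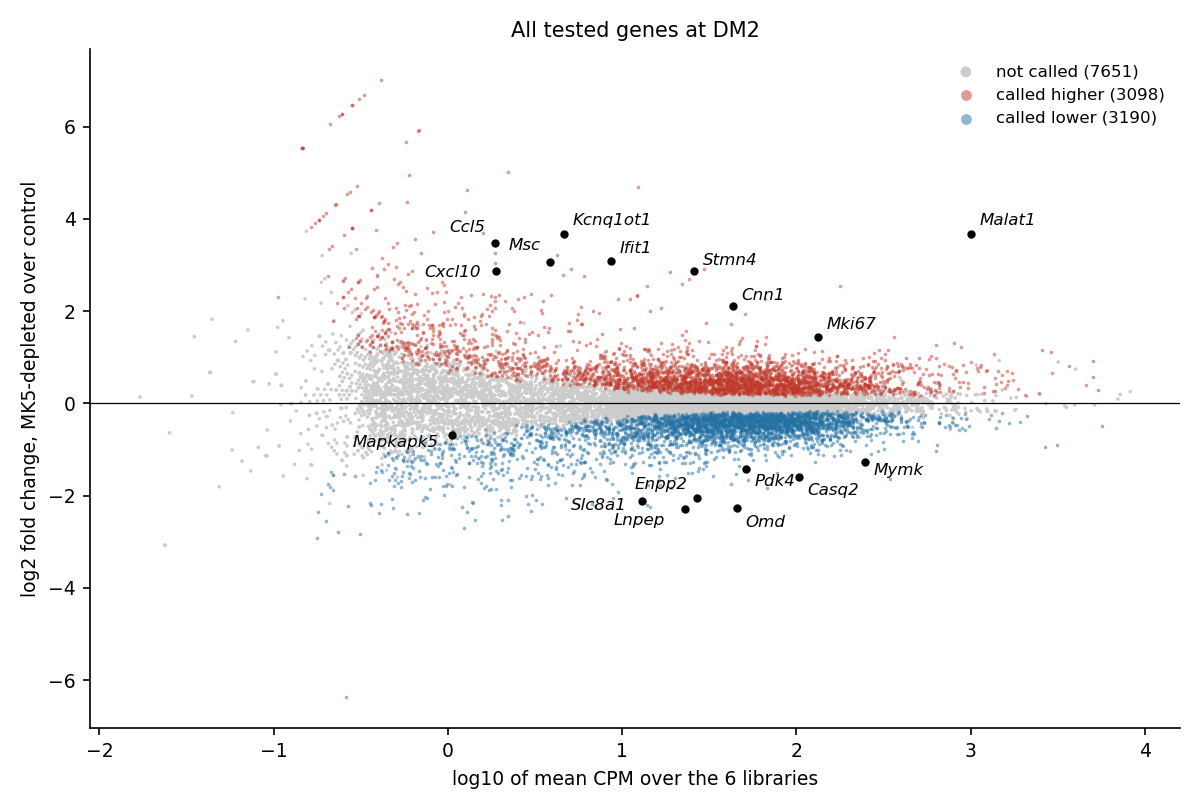
Each point is one of 13939 tested genes, with the log10 of its mean CPM over the 6 DM2 libraries on the x axis and the log2 fold change of MK5-depleted over control on the y axis. The 3098 genes called higher are red and the 3190 called lower are blue; Malat1, Ifit1 and Ccl5 lie above 3, and Lnpep and Omd below -2.

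The difference followed the length of the gene's exons. In the shortest 20% of genes the median log2 fold change was 0.39, with 39.4% called higher and 6% lower, and in the longest 20% it was -0.22, with 10.6% higher and 41.2% lower. By GC content it went from -0.21 in the lowest 20% to 0.17 in the highest. The length trend was present in each MK5-depleted library (0.34, 0.32 and 0.22 in the shortest genes, -0.22, -0.20 and -0.21 in the longest). Offsets for the trend of each library over length and GC content brought these medians to between -0.06 and 0.05. With them 5593 genes were called, of which 4447 were among the 6288, or 70.7% of these and 79.5% of the former. The part of this trend in the results below was not tested beyond these offsets. List counts with them are given where they moved by over 1.5 times or the balance of calls turned.

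**Figure D2:**
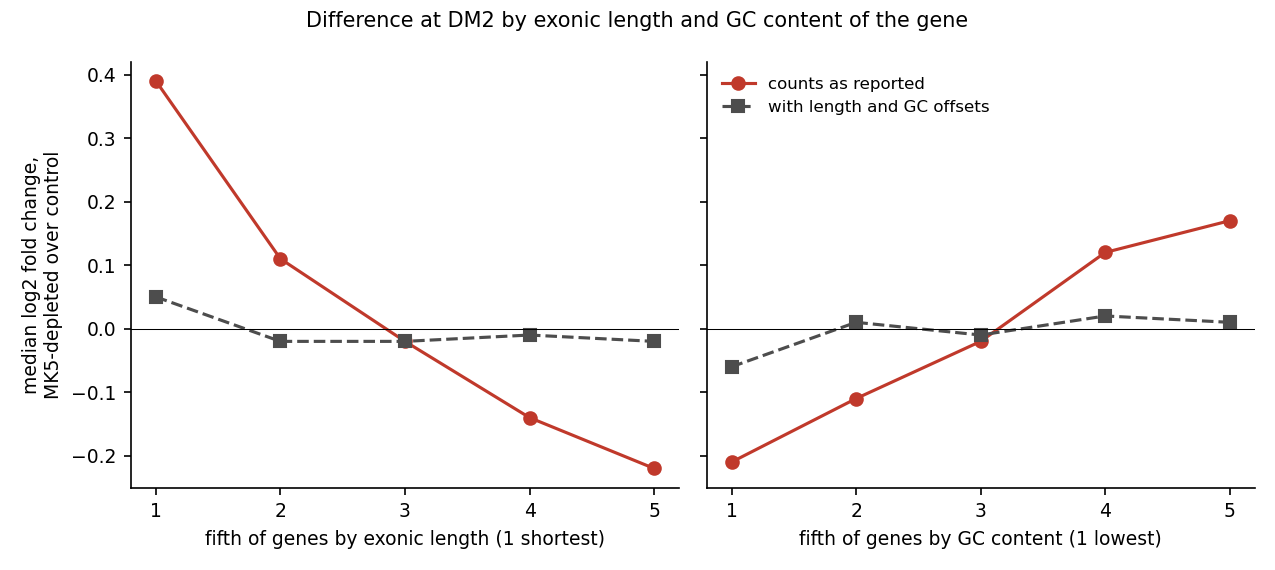
The median log2 fold change of MK5-depleted over control at DM2 is plotted for 5 equal bins of the tested genes by exonic length (left) and GC content (right), from the counts as reported (red) and with offsets for both (grey). The red line falls from 0.39 to -0.22 with length, while the grey line stays between -0.06 and 0.05 in both panels.

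Interferon-stimulated genes were higher in the MK5-depleted cells. Of 50 tested genes of the interferon response 27 were called higher and 6 lower, with a median log2 fold change of 0.48 beside 0.00 for all genes. Ifit1, an antiviral protein that binds foreign RNA caps, stood at 2.22, 1.44 and 1.82 CPM in the controls and 18.1, 17.0 and 11.2 CPM in the MK5-depleted libraries. All 3 MK5-depleted libraries lay far above the controls, and Ifit1 rose by 3.08 ± 0.36 on the log2 scale (adjusted p 1.71e-05). Isg15, a ubiquitin-like protein attached to targets in the antiviral state and shown here for its promoter, rose from 3.09, 3.11 and 2.73 CPM to 13.4, 9.94 and 11.6 CPM (1.97 ± 0.17, adjusted p 1.44e-06). Ifit3b and Ifi44 were low in every library. Ifit3b stood at 0.242, 0.325 and 0.191 CPM against 1.99, 1.58 and 1.21 CPM (2.62 ± 0.46, adjusted p 0.000264), and its near copy Ifit3 can share its reads. Ifi44 stood at 0.145, 0.325 and 0.431 CPM against 1.77, 1.09 and 0.842 CPM (2.01 ± 0.50, adjusted p 0.0035), a call lost with library 3 alone. Of chemokines that interferon induces, Ccl5 stood at 0.290, 0.418 and 0.191 CPM against 3.65, 3.60 and 3.00 CPM (3.48 ± 0.40, adjusted p 1.15e-05). Cxcl10 stood at 0.677, 0.278 and 0.383 CPM against 3.87, 2.68 and 3.37 CPM (2.88 ± 0.45, adjusted p 0.000128). The 6 genes called lower, named after their values were seen, were Parp9, Dtx3l, Ifit2, Parp12, Samd9l and Trim25, all between -0.50 and -0.31. On TPM 6 list members were called higher and 11 lower, with a median of 0.02, and with library 3 alone 13 were called higher and 1 lower (median 0.46). With offsets 24 were called higher and 3 lower (median 0.41). On the log2(TPM + 1) scale, which understates the change of low genes, Ifit1 was at 1.91, Ccl5 at 2.26, Cxcl10 at 0.995 and Ifit3b at 0.78, all called.

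The promoters of Ifit1 and Isg15 show the element through which interferon signalling acts, the interferon-stimulated response element (ISRE), searched as GAAA, any 2 bases and GAAA again, and on the other strand as TTTC, any 2 bases and TTTC. They are RefSeq windows on GRCm38.p6 from 250 bases before to 50 after the start site, 5′ to 3′ on the gene's strand, with every match in capitals. The Ifit1 window is chr19:34640639-34640938 on the plus strand, with 2 matches, and the Isg15 window is chr4:156200769-156201068 on the minus strand, with 3 matches that overlap one another.
Ifit1: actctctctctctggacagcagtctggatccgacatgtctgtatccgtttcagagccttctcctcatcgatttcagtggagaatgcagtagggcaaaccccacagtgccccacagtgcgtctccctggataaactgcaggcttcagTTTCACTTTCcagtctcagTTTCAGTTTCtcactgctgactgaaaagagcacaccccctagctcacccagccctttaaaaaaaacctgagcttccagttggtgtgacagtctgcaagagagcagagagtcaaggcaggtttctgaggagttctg
Isg15: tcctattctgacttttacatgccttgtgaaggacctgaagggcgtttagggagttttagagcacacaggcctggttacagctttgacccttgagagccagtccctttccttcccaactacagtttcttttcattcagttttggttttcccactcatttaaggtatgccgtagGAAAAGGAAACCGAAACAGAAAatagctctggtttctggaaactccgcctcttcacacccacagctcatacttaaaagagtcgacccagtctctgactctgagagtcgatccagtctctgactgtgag
Of the 50 tested list members 40 had a promoter in the RefSeq table, and 18 of them (45%) held a match. The share was 3.62% of all tested genes with a window, 3.99% of all 27025 genes in the table and 3.44% of all its 32851 windows. A match was found in 10 of the 21 genes called higher that had a window, 0 of the 5 called lower and 8 of the 14 not called. The list holds known interferon-stimulated genes, so its share of matches is not a result of these libraries. These matches are letters in a window and do not show binding.

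Cell cycle genes were higher in the MK5-depleted cells. Of 46 tested genes of cell cycle and mitosis 35 were called higher and 0 lower (median 0.68), and of 41 genes of DNA replication 27 were called higher and 0 lower (median 0.48). In bulk libraries, more dividing cells and more of these transcripts per cell cannot be told apart. Mki67, encoding the proliferation antigen Ki-67, stood at 81.7, 66.6 and 67.5 CPM in the controls and 229, 175 and 179 CPM in the MK5-depleted libraries, where every library was above 2 times the highest control, and rose by 1.44 ± 0.16 (adjusted p 9.69e-06). Cenpe, a kinetochore motor, stood at 39.3, 30.9 and 33.2 CPM against 100.1, 73.0 and 73.1 CPM (1.25 ± 0.15, adjusted p 2.26e-05). Spc24, a subunit of the kinetochore NDC80 complex, rose by 1.21 ± 0.13 (adjusted p 5.74e-06). Gins2 and Gins1, subunits of the complex that starts replication forks with the MCM helicase, rose by 1.17 ± 0.10 (adjusted p 7.56e-07) and 0.98 ± 0.12 (adjusted p 1.45e-05). Gins2 stood at 11.9, 12.2 and 12.3 CPM against 28.8, 25.2 and 28.1 CPM, a narrow spread in both groups. Mcm10 rose by 0.85 ± 0.18 (adjusted p 0.00132). Of 10 tested CDK inhibitors and pocket proteins 3 were higher and 3 lower. Rbl2, encoding the pocket protein p130 of quiescent cells, stood at 105.8, 110.3 and 101.6 CPM against 40.8, 49.0 and 56.1 CPM and fell by 1.12 ± 0.11 (adjusted p 3.28e-06). Rb1, encoding the retinoblastoma protein, fell by 0.74 ± 0.16 (adjusted p 0.00151), and Cdkn2d, encoding the CDK4/6 inhibitor p19, rose by 0.95 ± 0.11 (adjusted p 1.83e-05). With library 3 alone 24 cell cycle and 24 replication genes were called higher and 0 lower. On TPM 12 and 13 were called higher and 0 lower, with medians of 0.30 and 0.16.

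Transcripts of FoxO target genes were more often lower than higher. Of 36 tested targets 17 were called lower and 6 higher (median -0.22), and with library 3 alone 13 were lower and 3 higher. Pdk4, a kinase that shuts off pyruvate dehydrogenase and spares glucose, stood at 83.9, 74.5 and 65.8 CPM in control and 25.4, 31.5 and 26.3 CPM in MK5-depleted libraries. The groups were far apart and Pdk4 fell by 1.43 ± 0.12 (adjusted p 8.94e-07). Trim63, encoding the atrophy ubiquitin ligase MuRF1, stood at 15.0, 14.4 and 15.1 CPM against 5.52, 5.19 and 7.26 CPM and fell by 1.30 ± 0.17 (adjusted p 2.68e-05). Rbl2, given above, also belongs to the list. Fbxo32, the other classical atrophy ligase (atrogin-1) and named here after its values were seen, stood at 128, 139 and 121 CPM against 95.2, 106 and 94.3 CPM, a fall by 0.40 ± 0.11 (adjusted p 0.00696) that was not called with library 3 alone. Eif4ebp1, a translation repressor and the highest of the 6 called higher, rose by 0.68 ± 0.11 (adjusted p 0.000123). The forkhead core GTAAACA, or TGTTTAC on the other strand, was searched in the same RefSeq windows. It was held by 5 of the 31 targets with a window (16.1%, against 3.05% of tested genes with a window and 4.05% of all genes in the table). They were 2 of the 16 called lower, 1 of the 4 called higher and 2 of the 11 not called. Among these, Trim63 is shown because it is the one called lower with the largest fall, in the window chr4:134314870-134315169 on the plus strand, with 1 match in capitals.
Trim63: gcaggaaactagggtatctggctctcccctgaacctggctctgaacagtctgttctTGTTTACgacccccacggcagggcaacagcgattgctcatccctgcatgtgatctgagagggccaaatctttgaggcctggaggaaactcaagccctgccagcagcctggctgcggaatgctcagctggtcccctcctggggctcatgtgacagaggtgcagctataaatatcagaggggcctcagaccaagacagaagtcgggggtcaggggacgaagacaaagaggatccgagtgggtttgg
The Pdk4 window held no match of these letters.

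**Figure D3:**
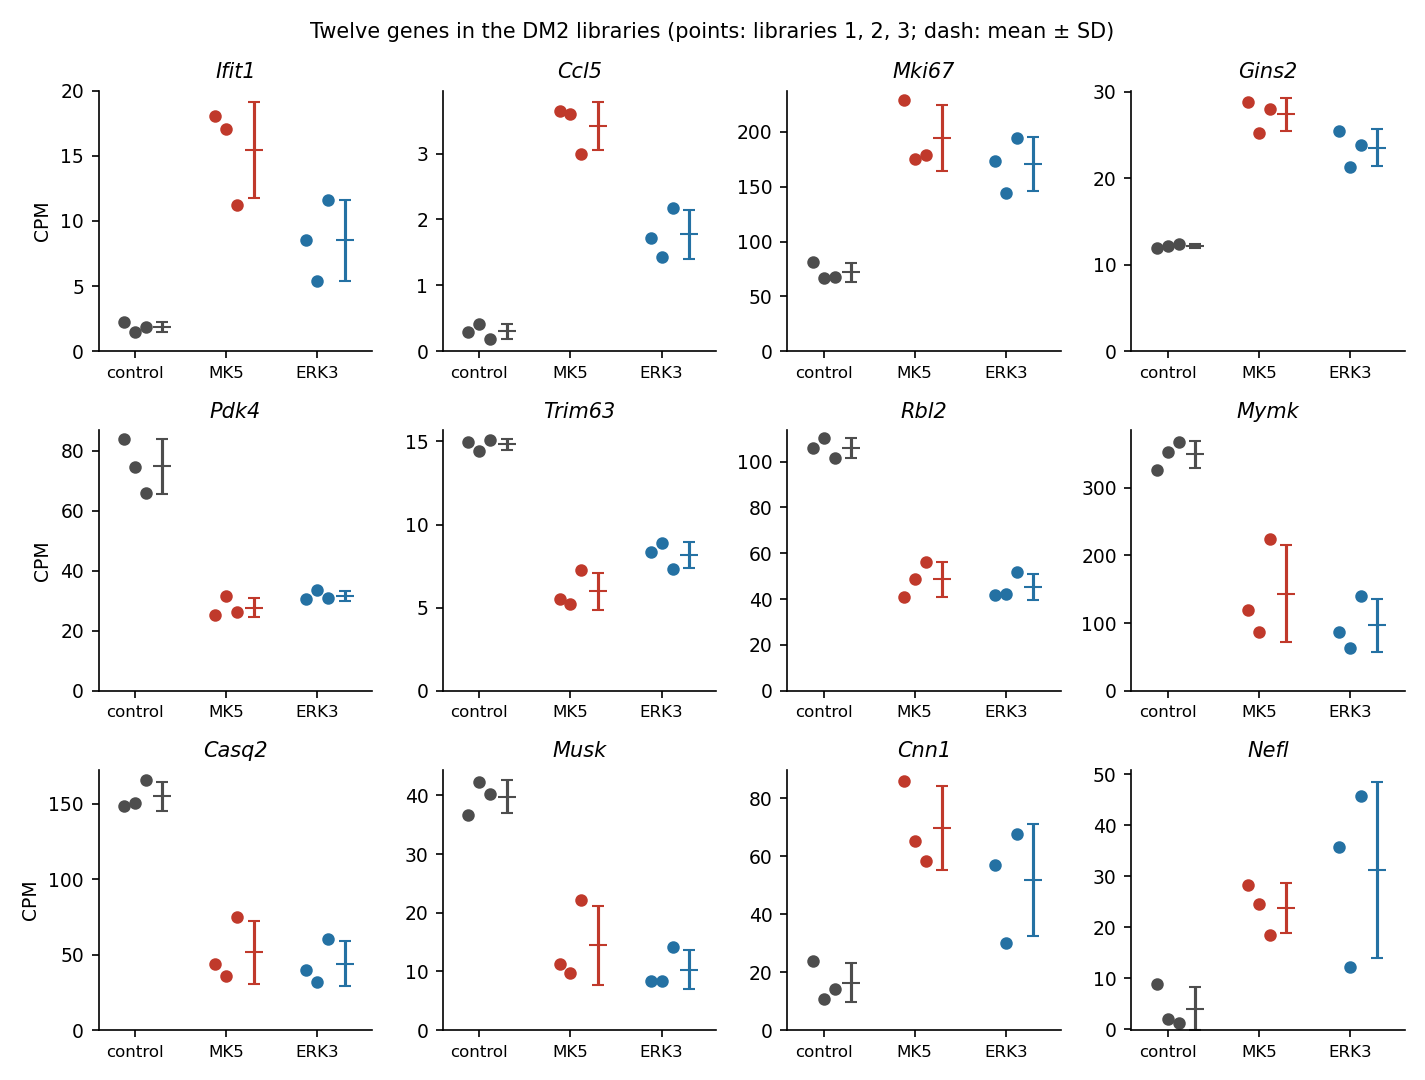
CPM of 12 genes in the DM2 libraries of the control (grey), MK5-depleted (red) and ERK3-depleted (blue) lines, with a point for each library and a dash for the mean ± SD (n = 3). Control and MK5-depleted points do not overlap in any panel; in the Mymk, Casq2 and Musk panels MK5-depleted library 3 lies nearest to the controls.

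Muscle genes did not move as a block. Of 23 tested myogenic regulators 5 were called higher and 10 lower. Msc (musculin), a bHLH repressor of MyoD activity, stood at 1.21, 0.696 and 0.574 CPM in control and 6.74, 4.80 and 9.21 CPM in MK5-depleted libraries and rose by 3.06 ± 0.40 (adjusted p 3.03e-05). Klf5, a zinc finger factor that acts with MyoD, stood at 70.2, 65.3 and 57.6 CPM against 29.1, 21.9 and 32.6 CPM and fell by 1.21 ± 0.17 (adjusted p 5.75e-05). Tead4, a TEA domain factor of muscle genes, fell by 0.90 ± 0.18 (adjusted p 0.000723), a call lost with library 3 alone. Myod1 and Myog had log2 fold changes of -0.07 ± 0.13 (adjusted p 0.684) and -0.32 ± 0.32 (adjusted p 0.436).

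Of 25 tested genes of myoblast fusion 9 were called lower and 1 higher (median -0.22). Mymk, encoding the membrane fusogen myomaker, stood at 327, 354 and 367 CPM in control and 119, 87.1 and 225 CPM in MK5-depleted libraries. It fell by 1.28 ± 0.40 (adjusted p 0.0162), but its MK5-depleted libraries spread over more than 2 times, and the call was lost without library 1, without library 2 and with library 3 alone (-0.62, adjusted p 0.38). Mymx, encoding its partner myomixer and named after its values were seen, stood at 38.6, 47.4 and 44.5 CPM against 52.9, 39.1 and 55.6 CPM, and the groups overlapped. Tmem182, a muscle membrane protein that binds integrin, stood at 26.5, 26.3 and 28.7 CPM against 9.94, 6.12 and 11.5 CPM and fell by 1.56 ± 0.35 (adjusted p 0.00179, lost with library 3 alone). Nfatc2, a factor of myotube growth, lay at the detection limit at 0.821, 1.44 and 2.01 CPM against 0.387, 0.928 and 0.842 CPM. Its groups overlapped, and its call (-0.98 ± 0.38, adjusted p 0.0417) was lost with DESeq2, RSEM counts, offsets and library 3 alone, and without MK5-depleted library 1 or 3 or control library 2 or 3. With offsets 2 fusion genes were called higher and 6 lower, with library 3 alone 3 were lower, and without MK5-depleted library 1 there were 4.

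Of 47 tested sarcomere genes 10 were called higher and 8 lower (median -0.10), shares near those of all genes. With length and GC offsets the balance turned to 7 higher and 12 lower (median -0.20). On TPM 2 were higher and 11 lower, but the list median of -0.28 was near the -0.29 of all genes. On the gene counts the log2 fold changes of the list ran from -1.67 to 1.32. Its summed level was 10250 to 11140 CPM in control and 9860 to 12820 CPM in MK5-depleted libraries. Mybpc1, slow myosin-binding protein C, fell by 1.67 ± 0.33 (adjusted p 0.000745), from 3.43, 3.94 and 2.97 CPM to 0.939, 0.928 and 1.37 CPM. Lmod2, a nucleator of thin filaments, stood at 22.5, 24.0 and 25.0 CPM against 8.40, 5.68 and 12.6 CPM and fell by 1.42 ± 0.25 (adjusted p 0.00029). Myh2, the adult fast IIa myosin heavy chain, was barely transcribed, at 1.11, 0.974 and 1.29 CPM against 0.221, 0.328 and 0.526 CPM (-1.63 ± 0.36, adjusted p 0.00168). The calls of Mybpc1 and Myh2 were lost with library 3 alone, where 1 sarcomere gene was called lower and 6 higher, and Mybpc1 was not called on TPM. Myh3, the embryonic myosin heavy chain, stood at 411, 396 and 437 CPM against 322, 229 and 491 CPM, and the groups overlapped. Des, encoding the intermediate filament desmin, rose by 0.65 ± 0.09 (adjusted p 6.81e-05).

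The membrane systems of the muscle fibre held more lower than higher calls. Of 27 tested genes of calcium handling and excitation coupling 12 were lower and 2 higher (median -0.52), and with offsets 17 and 1. Casq2, a calcium buffer of the sarcoplasmic reticulum, stood at 149, 150.5 and 166 CPM against 44.0, 35.7 and 75.3 CPM and fell by 1.59 ± 0.32 (adjusted p 0.00111). Kcnj2, the inward rectifier potassium channel that hyperpolarises fusing myoblasts, stood at 74.6, 74.0 and 50.4 CPM against 20.3, 28.5 and 20.5 CPM and fell by 1.52 ± 0.16 (adjusted p 7e-06). Kcnn3, a calcium-activated potassium channel, fell by 1.51 ± 0.44 (adjusted p 0.00968), a call that rested on MK5-depleted libraries 1 and 2 (without library 3 it was -2.24, and with it alone -0.67). Of 15 tested neuromuscular junction genes 5 were lower and 0 higher. Ache, the acetylcholinesterase, fell by 1.82 ± 0.36 (adjusted p 0.000656), its collagen tail Colq by 1.52 ± 0.24 (adjusted p 0.000144), and the agrin-signalling kinase Musk, at 36.7, 42.4 and 40.3 CPM against 11.3, 9.83 and 22.2 CPM, by 1.46 ± 0.27 (adjusted p 0.000472). Of 17 tested genes of the dystrophin complex 9 were lower and 0 higher (median -0.37), and with offsets 8 and 2. Sntb1, beta-1 syntrophin, stood at 21.6, 27.3 and 22.9 CPM against 3.04, 3.28 and 8.84 CPM and fell by 2.24 ± 0.37 (adjusted p 0.000206). Its fold was larger without library 3 (-2.92) and smaller with it alone (-1.42). Dtna, alpha dystrobrevin, fell by 0.96 ± 0.14 (adjusted p 5.86e-05). With library 3 alone the medians were -0.31 over the calcium and -0.28 over the dystrophin complex genes. Over the junction genes the median was 0.03 there, beside -0.31 with all libraries, so that list did not lean lower. Casq2, Kcnn3, Ache (-1.16) and Musk (-0.83) were not called with library 3 alone. The call of Kcnn3 was also lost without MK5-depleted library 1.

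Of 24 tested genes of fatty acid oxidation 8 were called lower and 0 higher (median -0.19). Cpt1a, which carries fatty acids to the mitochondrion, stood at 78.5, 78.9 and 71.0 CPM against 41.9, 50.9 and 45.2 CPM and fell by 0.73 ± 0.09 (adjusted p 2.92e-05). Etfdh, which passes electrons from beta oxidation to ubiquinone, fell by 0.70 ± 0.15 (adjusted p 0.000996, lost with library 3 alone, where 3 of the list were lower beside 1526 of all 13939 genes). Of 20 genes of muscle energy metabolism 4 were higher and 3 lower, shares not above those of all genes, and on TPM 1 higher and 4 lower. Pfkm, muscle phosphofructokinase, fell by 0.71 ± 0.12 (adjusted p 0.000227) and Pygm, muscle glycogen phosphorylase, by 0.79 ± 0.27 (adjusted p 0.0217). Both calls were lost with library 3 alone, and that of Pygm (-0.20 there) also on TPM, without MK5-depleted library 1 or 2 and without control library 1 or 3. Cox6a2, a muscle subunit of cytochrome oxidase, rose by 0.74 ± 0.20 (adjusted p 0.007), which was lost with offsets and on TPM.

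Of 53 tested nuclear genes of the respiratory chain 41 were called higher and 2 lower (median 0.40), and of 52 cytoplasmic ribosomal protein genes 45 were higher and 0 lower (median 0.70). With length and GC offsets the counts were 26 higher and 4 lower (median 0.20) and 37 higher and 0 lower (median 0.41). On TPM they were 19 higher and 5 lower, and 42 higher and 1 lower. Uqcrq, a subunit of complex III, stood at 102.6, 102 and 104.9 CPM against 226, 203 and 183 CPM and rose by 0.98 ± 0.15 (adjusted p 0.000122). Ndufa2, of complex I, rose by 0.91 ± 0.14 (adjusted p 0.000138). Cycs, cytochrome c, stood at 6.48, 6.77 and 7.18 CPM against 20.2, 17.1 and 5.16 CPM. Its call (1.05 ± 0.35, adjusted p 0.0216) turned to -0.39 with library 3 alone, and it was also lost without MK5-depleted library 1 or 2 and without control library 1 or 2. In the authors' TPM Cycs stood at 26.2, 28.4 and 30.8 in control and 92.8, 70.5 and 60.2 in MK5-depleted libraries, without overlap, and Cycs was called higher on RSEM counts (0.84, adjusted p 0.00113). Rpl13 rose by 1.28 ± 0.22 (adjusted p 0.000299), Rps10 by 1.02 ± 0.18 (adjusted p 0.00026) and Rps19 by 1.01 ± 0.16 (adjusted p 0.000122), all proteins of the cytoplasmic ribosome. Rps19 stood at 162, 173 and 183 CPM against 368, 351 and 320.2 CPM, without overlap, but was not called on TPM (0.14). Rpl13 and Rps10 moved to 0.63 and 0.29 on TPM. Cycs and the ribosomal protein genes have many near-identical processed pseudogenes, and only uniquely mapped reads were counted, so their levels are uncertain. On RSEM expected counts, which share multimapping reads between genes, 50 of the 52 ribosomal protein genes were called higher and 0 lower (median 0.74), and 42 of the 53 respiratory chain genes higher and 2 lower (median 0.40).

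**Figure D4:**
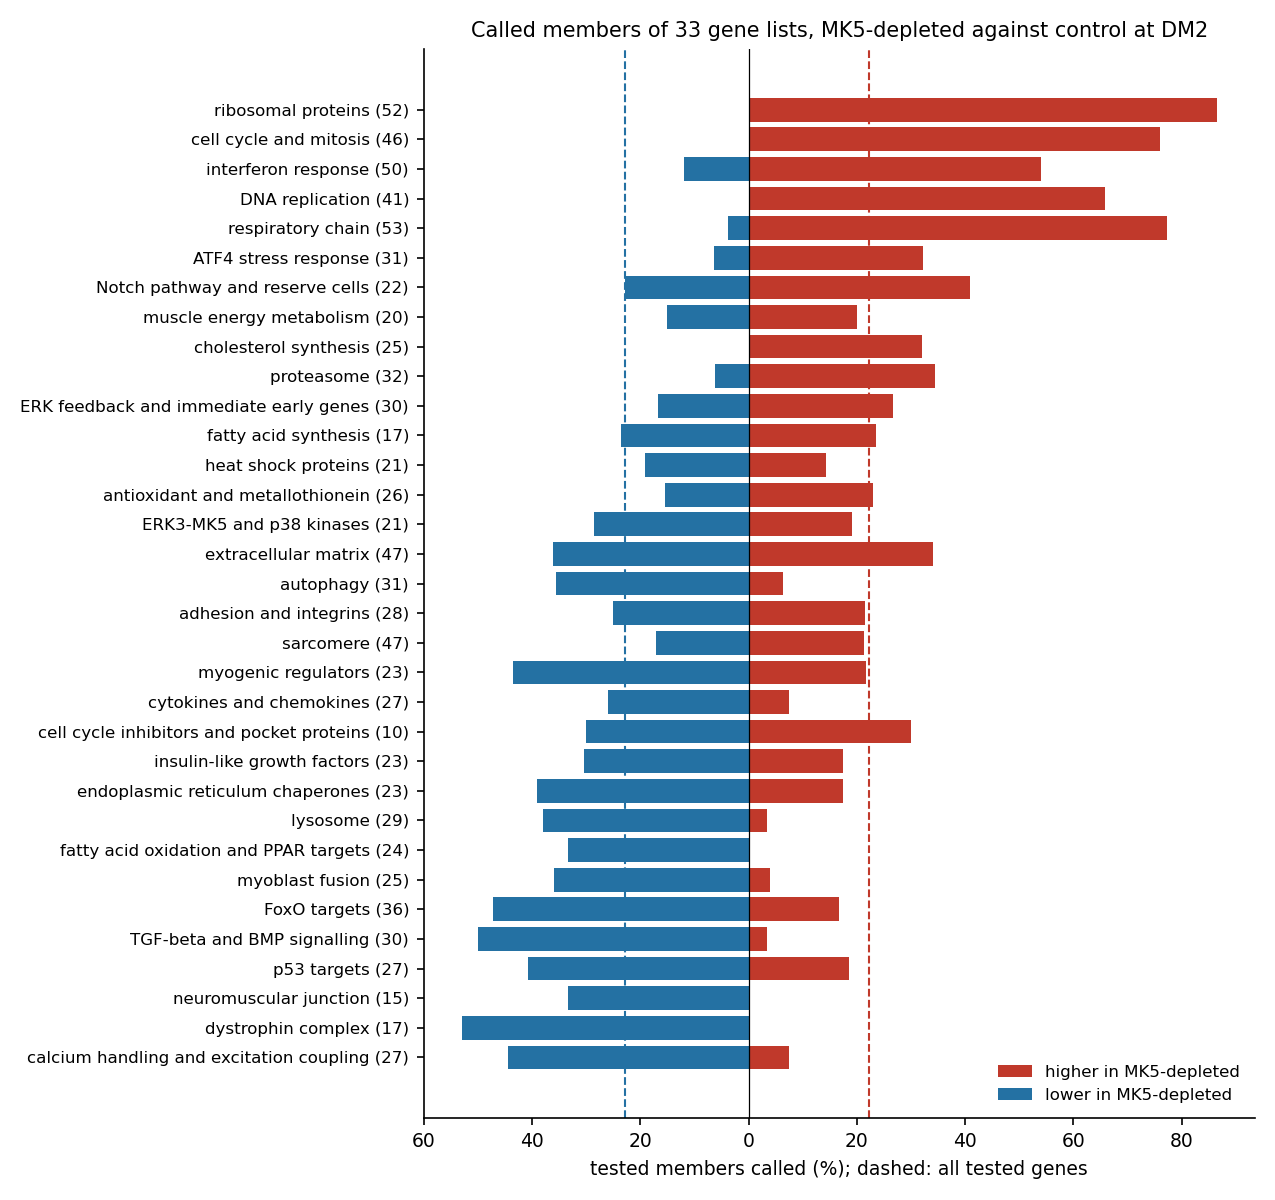
Bars give the percentage of tested members (number in brackets) of 33 gene lists called higher (red, right) or lower (blue, left) in MK5-depleted cells at DM2, ordered by median log2 fold change, and dashed lines give 22.2% and 22.9% for all tested genes. Ribosomal protein, cell cycle, DNA replication, respiratory chain and interferon lists extend far to the right, and the dystrophin complex, TGF-beta and BMP, FoxO target and calcium lists extend furthest to the left.

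Genes of protein turnover were called in both directions. Of 32 tested proteasome genes 11 were higher and 2 lower (median 0.12). On TPM 1 was higher and 10 lower, with a median of -0.25 beside -0.29 for all genes. Psmd1, a large base subunit of the regulatory particle, fell by 0.60 ± 0.08 (adjusted p 4.26e-05, not called on RSEM counts). Psmb3, a subunit of the core, and Adrm1, a ubiquitin receptor, rose by 0.54 ± 0.10 (adjusted p 0.000413) and 0.49 ± 0.09 (adjusted p 0.000367), and neither was called on TPM. Of 31 autophagy genes 11 were lower and 2 higher (11 and 4 with offsets), and of 29 lysosome genes 11 were lower and 1 higher. Ulk2, a kinase that starts autophagy, stood at 103.5, 102.7 and 96.5 CPM against 60.9, 63.9 and 58.8 CPM and fell by 0.72 ± 0.08 (adjusted p 1.36e-05). Atg9a, the scramblase of autophagic membranes, fell by 1.29 ± 0.33 (adjusted p 0.00436), which was -0.36 on RSEM counts and lost with library 3 alone (-0.70). Atg4c, a protease of the LC3 family, fell by 0.67 ± 0.13 (adjusted p 0.000601). Lamp2, a membrane protein of lysosomes, stood at 626, 665 and 628 CPM against 347, 452 and 290 CPM and fell by 0.82 ± 0.13 (adjusted p 0.000128). Atp6v1h, of the proton pump, fell by 0.68 ± 0.15 (adjusted p 0.00177), which was lost with offsets and with library 3 alone. With library 3 alone 7 autophagy and 6 lysosome genes were lower, and without control library 1 there were 7 lysosome genes.

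Among stress genes, 10 of 31 tested members of the ATF4 response were higher and 2 lower (5 and 3 on TPM). Atf3, a stress-induced bZIP factor, stood at 7.49, 1.53 and 2.97 CPM in control and 23.7, 18.5 and 18.5 CPM in MK5-depleted libraries and rose by 2.34 ± 0.43 (adjusted p 0.000476), or by 3.17 without control library 1, the highest control. Trib3, a pseudokinase, rose by 1.49 ± 0.25 (adjusted p 0.00019) and Ddit3, encoding CHOP, by 1.08 ± 0.17 (adjusted p 0.000161). Of 23 endoplasmic reticulum chaperones and sensors 4 were higher and 9 lower (2 and 9 with offsets, 0 and 6 with library 3 alone). Dnajb9, a cochaperone of BiP, fell by 0.77 ± 0.14 (adjusted p 0.000366) and Atf6, a sensor of unfolded protein, by 0.65 ± 0.08 (adjusted p 2.32e-05). The call of the oxidoreductase Ero1lb (0.57 ± 0.22, adjusted p 0.043) was lost under RSEM counts, TPM, library 3 alone, and without MK5-depleted library 1 or 3 or control library 2 or 3. Of 21 heat shock proteins 3 were higher and 4 lower, shares not above those of all genes, and on TPM 1 higher and 11 lower. Hspa4l fell by 0.61 ± 0.10 (adjusted p 0.000133, and by 1.44 on TPM), and the call of Hspe1 (0.45 ± 0.14, adjusted p 0.0132), whose groups overlapped, was lost with offsets, on TPM, with library 3 alone and without MK5-depleted library 2 or control library 1. Of 27 p53 targets 11 were lower and 5 higher (7 and 2 with library 3 alone). Eda2r, a death receptor relative, fell by 1.05 ± 0.15 (adjusted p 5.22e-05), and Bax, the pore-forming death effector, rose by 0.82 ± 0.17 (adjusted p 0.00107, lost with library 3 alone). Perp, a membrane protein, stood at 1.11, 2.04 and 1.44 CPM against 0.276, 0.983 and 0.105 CPM (-1.75 ± 0.52, adjusted p 0.0112). The call was lost without MK5-depleted library 1 or control library 2, and the value was -2.97 without MK5-depleted library 2 and -3.77 with library 3 alone. Of 26 antioxidant genes 6 were higher and 4 lower, beside 22.2% and 22.9% of all genes. On TPM 2 antioxidant genes were higher and 12 lower, and with offsets 3 higher and 6 lower. Nfe2l2, their regulator NRF2, fell by 0.78 ± 0.12 (adjusted p 0.000124), Gclc, of glutathione synthesis, fell by 0.80 ± 0.19 (adjusted p 0.00305, lost with library 3 alone), and Sod1, superoxide dismutase, rose by 0.63 ± 0.10 (adjusted p 0.000189).

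Of 25 genes of cholesterol synthesis 8 were higher and 0 lower (median 0.13). On TPM 1 was higher and 7 lower, with a median of -0.25 beside -0.29 for all genes. With library 3 alone the median was 0.10. Acat2, an acetoacetyl-CoA thiolase, rose by 0.86 ± 0.16 (adjusted p 0.000544), Pmvk, phosphomevalonate kinase, by 0.77 ± 0.11 (adjusted p 7.72e-05) and Fdps, farnesyl diphosphate synthase, by 0.66 ± 0.15 (adjusted p 0.00169). Acat2 was not called on TPM or with library 3 alone, and Fdps not on TPM. Of 17 genes of fatty acid synthesis 4 were higher and 4 lower, shares near those of all genes. Fasn, the fatty acid synthase, stood at 198, 179.9 and 169.8 CPM against 360, 324 and 303 CPM and rose by 0.85 ± 0.13 (adjusted p 0.000107), and by 1.48 on TPM. Gpam, which begins glycerolipid synthesis, fell by 1.40 ± 0.41 (adjusted p 0.012), but not without MK5-depleted library 1 or with library 3 alone (-0.78). Dgat2, which ends it, had a call (-0.57 ± 0.20, adjusted p 0.0259) that was lost with library 3 alone and without MK5-depleted library 1 or 2 or control library 2 or 3.

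Of 30 tested genes of TGF-beta and BMP signalling 15 were lower and 1 higher (median -0.23), with offsets 15 and 2, and with library 3 alone 7 and 1. The one called higher was Nog, the BMP antagonist noggin, at 3.43, 2.04 and 1.87 CPM against 10.3, 7.75 and 7.53 CPM (1.80 ± 0.29, adjusted p 0.000172). Grem1, another BMP antagonist, stood at 292, 333 and 196 CPM against 137, 177 and 86.1 CPM and fell by 1.03 ± 0.25 (adjusted p 0.00347, and by 1.65 with library 3 alone), and the coreceptor Tgfbr3 fell by 0.89 ± 0.17 (adjusted p 0.000508). Without MK5-depleted library 1 there were 9 lower calls. Of 23 genes of insulin-like growth factors 4 were higher and 7 lower. Igfbp2, a binding protein, stood at 676, 439 and 480.3 CPM against 1312, 1112 and 1282 CPM and rose by 1.22 ± 0.16 (adjusted p 4.17e-05), Igf2r, which clears IGF2, rose by 1.07 ± 0.14 (adjusted p 4.15e-05), and the adaptor Grb14 fell by 1.06 ± 0.23 (adjusted p 0.00148). Of 22 Notch and reserve cell genes 9 were higher and 5 lower (1 and 10 on TPM, 4 and 2 with library 3 alone). Hey1, a Notch target, stood at 4.40, 3.67 and 4.59 CPM against 11.8, 7.53 and 10.6 CPM and rose by 1.24 ± 0.23 (adjusted p 0.000369). Dll1, a Notch ligand, fell by 1.08 ± 0.20 (adjusted p 0.000401), and Pax7, the satellite cell factor, rose by 0.81 ± 0.23 (adjusted p 0.00785), neither being called with library 3 alone and Pax7 not on TPM. Of 30 ERK feedback and immediate early genes 8 were higher and 5 lower (5 and 8 on TPM), beside 22.2% and 22.9% of all genes. Etv4 rose by 0.95 ± 0.11, Phlda1 by 0.86 ± 0.10 and Ier2 by 0.81 ± 0.11. Of 27 cytokine and chemokine genes 7 were lower and 2 higher (3 and 2 with offsets), the latter Ccl5 and Cxcl10, given above. Il33, an alarmin, fell by 1.34 ± 0.27 (adjusted p 0.000827).

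Of 47 tested extracellular matrix genes 16 were higher and 17 lower, with offsets 15 and 11, and with library 3 alone 8 and 9. Tnc, the matrix protein tenascin C, stood at 455, 258 and 413 CPM against 944, 715 and 1025 CPM and rose by 1.25 ± 0.27 (adjusted p 0.00142). Aspn, a small proteoglycan, stood at 127, 264 and 283 CPM against 74.0, 149 and 81.9 CPM, and its groups overlapped (-1.15 ± 0.28, adjusted p 0.00366, lost in a fit of the 6 libraries alone). Tgfbi rose from low levels by 1.31 ± 0.34 (adjusted p 0.00447, lost with library 3 alone). Of 28 adhesion genes 6 were higher and 7 lower, shares near those of all genes, and with offsets 8 and 3. Mcam, an adhesion molecule of the immunoglobulin family, stood at 31.9, 11.97 and 15.3 CPM against 68.9, 53.1 and 72.1 CPM and rose by 1.71 ± 0.32 (adjusted p 0.000593). L1cam, of the same family and best known from neurons, stood at 3.04, 0.232 and 0.335 CPM against 10.5, 8.46 and 8.11 CPM (2.91 ± 0.52, adjusted p 0.000385, and 4.96 without control library 1). Itga4, an integrin subunit, lay between 0.0464 and 0.532 CPM in control and 1.04 and 1.77 CPM in MK5-depleted libraries (2.16 ± 0.53, adjusted p 0.00312, and 2.82 without control library 1).

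Markers of other cell types were examined beside these groups. Of 7 tested neuronal markers 6 were called higher (median 2.26), with a summed level of 58.8 to 115.9 CPM in control and 207 to 255 CPM in MK5-depleted libraries. Nefl, the light neurofilament, stood at 8.89, 2.00 and 1.34 CPM against 28.2, 24.6 and 18.5 CPM (2.55 ± 0.66, adjusted p 0.00593, lost with library 3 alone). Nefm rose by 2.78 ± 0.63 (adjusted p 0.00218) and Gap43, a growth cone protein, by 2.27 ± 0.38 (adjusted p 0.000224). Control library 1 was the highest control for each of these, and without it the values were 3.82, 4.14 and 2.91. Snap25, Elavl4 and Dcx, which define neurons, had no read in any of the 6 libraries. Of 6 tested smooth muscle markers 5 were higher (median 0.72), with a summed level of 7416 to 8373 CPM in control and 8118 to 10150 CPM in MK5-depleted libraries. Cnn1, calponin, stood at 23.8, 10.9 and 14.2 CPM against 86.0, 65.1 and 58.2 CPM and rose by 2.10 ± 0.27 (adjusted p 3.33e-05). Tagln and Mylk rose by 0.79 ± 0.13 (adjusted p 0.000234) and 0.89 ± 0.17 (adjusted p 0.000531), and neither was called on TPM. Of 9 tested fibroblast markers 4 were lower and 1 higher (3 and 0 with offsets), with summed levels of 848 to 906 CPM against 710 to 808 CPM. Pdgfra, the PDGF receptor of fibroblasts and mesenchymal cells, fell by 0.91 ± 0.12 (adjusted p 4.15e-05) and Mfap5 by 0.55 ± 0.16 (adjusted p 0.00966, lost with library 3 alone). The call of Dcn (-0.79 ± 0.28, adjusted p 0.0338) was lost with DESeq2, with offsets and without MK5-depleted library 1 or 3 or control library 2 or 3. Without MK5-depleted library 1, control library 2 or control library 3, 2 fibroblast markers were called lower. Macrophage and immune markers summed to 1.40 to 1.62 CPM in control and 2.21 to 3.06 CPM in MK5-depleted libraries, and Ptprc, Adgre1, Cd3e and Tyrobp had no read in any. Among the 3 tested, 2 were called higher (1 with RSEM counts), and the log2 fold changes of the 3 lay between 0.97 and 2.30 (median 1.29). Csf1r, the called one with a mean of at least 1 CPM in its higher group, stood at 0.338, 0.510 and 0.574 CPM against 1.11, 1.42 and 1 CPM (1.29 ± 0.35, adjusted p 0.00629, lost with library 3 alone and with unstranded counts). Of 3 adipocyte, 5 bone and cartilage, 1 endothelial and 3 epithelial markers tested, 3 were called: Pparg (-0.50 ± 0.15, adjusted p 0.0105), Sox9 (0.63 ± 0.19, adjusted p 0.0118) and Alpl (-2.37 ± 0.52, adjusted p 0.00143), none of them with library 3 alone. Pparg was also not called without MK5-depleted library 1 or control library 2, nor Sox9 without MK5-depleted library 1 or on TPM, and Alpl was at -1.73 without control library 1. Tek, the 1 endothelial marker tested, lay under or at 1 CPM, and Krt14 was the epithelial marker nearest to a call (-0.42 ± 0.18, adjusted p 0.0764). Krt14 was called lower with offsets (-0.75, adjusted p 0.0021), on TPM, without a filter and without control library 2 (-0.60). The part of any such cells in the other groups of genes was not tested.

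The largest rises were ranked over called genes whose higher group averaged 5 CPM or more and whose groups did not overlap. Genes with clone, predicted-gene or pseudogene symbols were left out of the ranking. The largest rises then included nuclear long noncoding RNAs. Malat1 stood at 150, 152 and 137 CPM in control and 2606, 2502 and 496 CPM in MK5-depleted libraries (3.67 ± 0.72, adjusted p 0.000948). Kcnq1ot1, which silences an imprinted domain, stood at 0.580, 0.650 and 0.765 CPM against 10.99, 11.96 and 2.90 CPM (3.68 ± 0.65, adjusted p 0.000397). In both, MK5-depleted libraries 1 and 2 were far above library 3, itself above every control. With library 3 alone Malat1 was at 1.78 and Kcnq1ot1 at 2.13, and neither was called. The share of reads outside genes was also highest in MK5-depleted libraries 1 and 2. It was 3.05% in control library 3 and 2.84% in MK5-depleted library 3. With that share in the model Malat1 was at 2.63 and Kcnq1ot1 at 2.96, both called. The share differed between the groups too, and its part in these rises was not tested. The others of the 10 largest rises were Ifit1, Msc, L1cam and Nefm, given above, and Stmn4, Siglecg, Lrrn1 and Cntfr. Stmn4, a microtubule regulator of neurons, stood at 14.7, 2.598 and 1.53 CPM against 56.2, 41.1 and 39.7 CPM (2.87 ± 0.60, adjusted p 0.00161). Lrrn1, a leucine-rich repeat membrane protein, stood at 6.91, 4.31 and 2.68 CPM against 33.3, 22.4 and 43.8 CPM (2.84 ± 0.43, adjusted p 0.000128). Siglecg rose by 2.91 ± 0.52 and Cntfr, a cytokine receptor subunit, by 2.75 ± 0.39. Without control library 1 Stmn4, Siglecg and Cntfr rose by 4.46, 4.38 and 3.79.

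By the same ranking, the largest falls were those of Lnpep, Omd, Sntb1, Klhl11, Atp7a, Zfp871, Slc8a1, Zfp971, Cdhr1 and Enpp2. Lnpep, the aminopeptidase of GLUT4 vesicles, stood at 35.2, 40.3 and 38.2 CPM against 6.08, 8.19 and 9.05 CPM and fell by 2.28 ± 0.19 (adjusted p 8.94e-07), with -2.05 for library 3 alone. Omd, osteomodulin, stood at 46.8, 93.4 and 86.6 CPM against 9.72, 23.3 and 13.7 CPM and fell by 2.28 ± 0.36 (adjusted p 0.000189). Enpp2, the secreted enzyme autotaxin, stood at 52.8, 40.8 and 36.0 CPM against 7.07, 14.5 and 9.74 CPM and fell by 2.05 ± 0.34 (adjusted p 0.000247). For Klhl11, Atp7a (a copper pump), Zfp871 and Slc8a1 (the sodium-calcium exchanger) the folds of 2.22, 2.19, 2.19 and 2.12 on the log2 scale, all falls, were larger in libraries 1 and 2. With library 3 alone they were -1.48, -1.43, -1.47 and -1.38 and still called. Zfp971 fell by 2.10 ± 0.30 and Cdhr1 by 2.06 ± 0.32.

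The same lines in GM show whether the MK5 effect differed between the media, tested as the DM2 effect minus the GM effect. In GM 1178 genes (8.45%) were called between the lines, and the 2 effects differed for 2512 genes (18%), with the DM2 effect above the GM effect in 1190 and below it in 1322. On TPM that split was 384 and 2614, and with MK5-depleted library 3 alone 219 genes were called. Leaving out 1 library at a time gave 933 to 3033, the lowest without MK5-depleted GM library 3. Interferon genes were called in 28 of 50 with the DM2 effect above, and in 0 below, beside 8.54% and 9.48% of all genes; in GM itself 0 were higher and 4 lower, beside 4.71% and 3.74% of all genes. Ifit1 stood at 5.07, 12.2 and 5.86 CPM in control and 8.37, 5.48 and 6.28 CPM in MK5-depleted GM libraries, so its groups overlapped there. Among these 12 libraries the 3 lowest Ifit1 values were those of the control DM2 libraries. The effects differed by 3.28 ± 0.49 for Ifit1 (adjusted p 0.00233), by 4.05 for Ccl5 (adjusted p 0.000815) and by 3.40 for Cxcl10 (adjusted p 0.00561). Ribosomal protein genes were also called in 37 of 52, all with the DM2 effect above, with 0 called in GM. Cell cycle genes were called in 3 above and 1 below (median difference 0.08), and replication genes in 2 above and 3 below (median difference -0.08). In GM 24 of 46 cell cycle genes were already higher, as were 36 of 41 replication genes. Pdk4 stood at 110, 112 and 142 CPM in control and 96.2, 100 and 113 CPM in MK5-depleted GM libraries, and its effects differed by -1.20 (adjusted p 0.00134). FoxO targets were called lower in GM in 7 of 36 and higher in 2. The 2 effects differed in 2 of them above and 7 below, with a median difference of 0.02. Foxo3 was called lower in GM too (-0.31, adjusted p 0.0399), and its effects differed by -0.15 (adjusted p 0.427). Of 23 myogenic regulators 8 were called with the DM2 effect below, and 7 of 17 dystrophin complex genes. Enpp2 was already lower in GM (13.2, 23.0 and 16.3 against 2.39, 4.37 and 2.06 CPM), and the difference of its effects was 0.53 (adjusted p 0.485). The neuronal genes Nefl, Nefm and Stmn4 were called higher in GM too, by 2.47, 2.20 and 2.36. Cholesterol genes were called higher in GM in 19 of 25. Pi16 and Prg4, not called at DM2, were among the 5 largest differences upward (2.20 and 2.21), and both were called lower in GM.

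**Figure D5:**
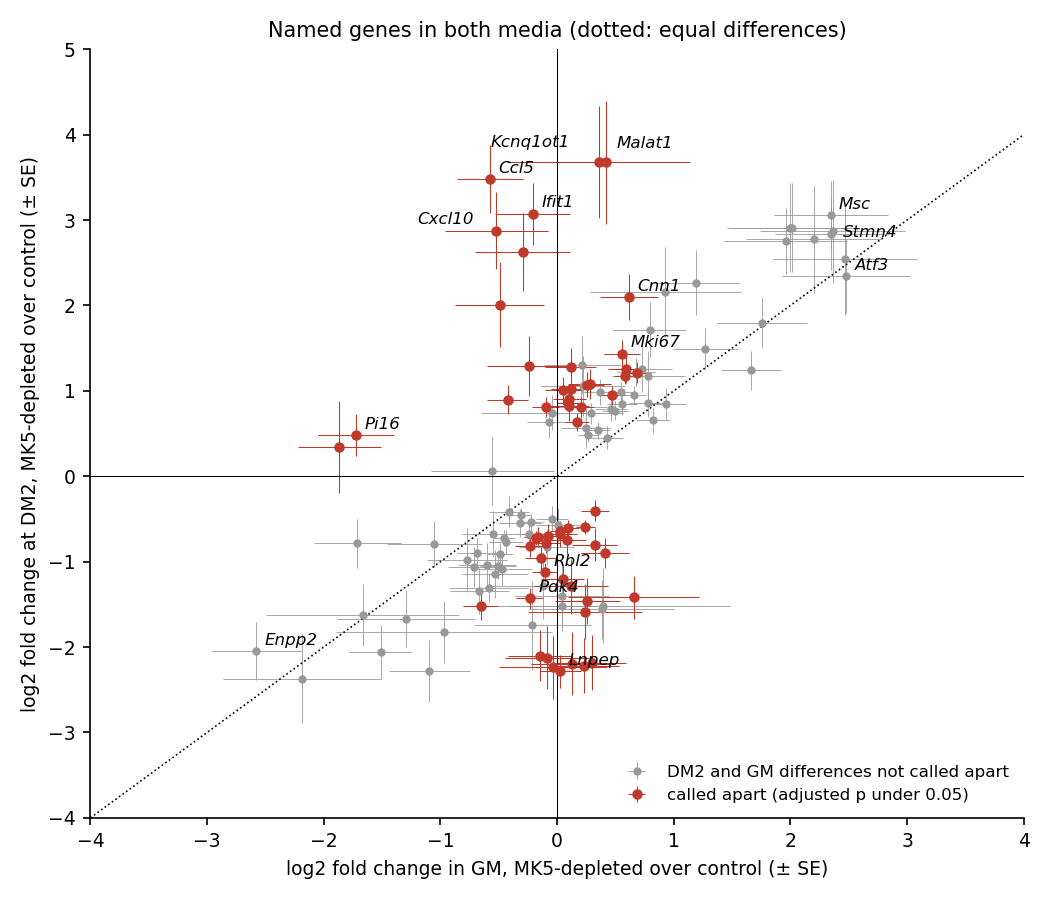
Each point is a named gene, with its log2 fold change of MK5-depleted over control in GM on the x axis and at DM2 on the y axis, both ± SE, and a dotted line where they are equal. Genes whose effects were called apart are red: Ccl5 and Ifit1 lie above 3 at DM2 and under 0 in GM, and Lnpep lies at -2.28 and 0.03. Msc, Stmn4 and Atf3, whose effects were not called apart, lie near the dotted line.

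Against the ERK3-depleted line at DM2, which leaves out the control libraries, 0 genes (0%) were called by edgeR. At an unadjusted p under 0.05 there were 2741, the smallest adjusted p was 0.056, and DESeq2 called 191 (52 higher and 139 lower in MK5-depleted). Without ERK3-depleted library 3 the count was 3536. Ifit1 stood at 8.57, 5.4 and 11.6 CPM in the ERK3-depleted libraries, and the MK5-depleted line differed from them by 0.85 ± 0.31 (adjusted p 0.174). Ccl5 differed by 0.94 ± 0.31 (adjusted p 0.147) and Cxcl10 by 1.48 ± 0.41 (adjusted p 0.138), with the MK5-depleted libraries above. Pdk4 differed by -0.19 ± 0.12 (adjusted p 0.377) and Mki67 by 0.19 ± 0.15 (adjusted p 0.496). Mapk6 stood at 116, 96.8 and 136 CPM in the ERK3-depleted libraries, and the MK5-depleted line was 0.45 ± 0.12 above them (adjusted p 0.138). Enpp2 stood at 20.7, 30.1 and 15.0 CPM there, a difference of -1.07 ± 0.35 (adjusted p 0.147). Malat1 was higher still in the ERK3-depleted libraries, at 6580, 12660 and 1702 CPM, and differed by -1.90 ± 0.66 (adjusted p 0.167). These p-values do not show that the lines were alike.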

How the data were processed

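RNA was measured by sequencing of stranded poly-A libraries, per the labels' protocols. The gene counts were made with STAR 2.5.1b and the expected counts and TPM with RSEM 1.2.28 on GRCm38, tools and build that the submitters' processing notes name without their roles; the columns of the deposited count files are those of STAR. The deposited counts are uniquely mapped reads per gene, and the reverse-strand column, which held 92.8 to 94.8% of stranded reads, was used. The deposited expected counts were rounded and served as a check, and the TPM of the authors were tested as log2(TPM + 1).

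Summary lines that name no gene (21.7 to 29.4% of reads) were left out. edgeR 4.0.16 (R 4.3.3) fitted group means over all 18 libraries (TMM, filterByExpr, quasi-likelihood F test, 12 residual degrees of freedom), with Benjamini-Hochberg adjustment over 13939 genes, and a gene was called at an adjusted p under 0.05. SE is the log2 fold change over the square root of F. Groups came from the labels. The difference from GM was an interaction contrast. Alternatives were DESeq2 1.42.0, RSEM counts, limma 3.58.1 on TPM, other filters, scalings and strands, length and GC offsets, the percentage of reads outside genes in the model, a replicate block, and leaving out libraries. The scripts were tested on simulated data. GENCODE M21 gave positions and lengths for 50376 of 50600 identifiers, and RefSeq (GRCm38.p6) the promoters.

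Named were Mapkapk5, Mapk6, Foxo3, Ifit1, Pdk4 and Mki67, up to 3 called members per list with the largest change and at least 1 CPM in the higher group (where none was called, the member with the smallest adjusted p), the 10 largest rises and falls at 5 CPM or more without overlap, and the 5 largest differences from GM in each direction; some genes under this rule are not reported here. Genes with clone, predicted-gene or pseudogene symbols were left out of the rankings of rises, falls and differences from GM. The comparison, the lists and this rule were chosen with earlier results of these data known. Precision is limited by 3 libraries a group.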

Additional observations from a re-analysis of the deposited data

Results flagged for a closer look

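The MK5 effect differed between DM2 and GM, by the test of the difference itself, for 2512 genes, among them the following named genes (log2 DM2 effect minus log2 GM effect). Among interferon genes and chemokines the DM2 effect was above the GM effect by 4.05 for Ccl5, 3.40 for Cxcl10, 3.28 for Ifit1, 2.92 for Ifit3b and 2.5 for Ifi44. The nuclear RNAs Kcnq1ot1 and Malat1 differed by 3.32 and 3.25, and both were highest in MK5-depleted DM2 libraries 1 and 2. Prg4 and Pi16 differed by 2.21 and 2.20, Csf1r by 1.54, and the smooth muscle markers Cnn1 and Mylk by 1.48 and 1.32. The ribosomal and respiratory genes Rpl13, Rps19, Rps10 and Ndufa2 differed by 1.16, 0.96, 0.90 and 0.80. The proliferation genes Mki67, Cenpe, Gins2 and Spc24 differed by 0.88, 0.66, 0.59 and 0.53, and the inhibitor Cdkn2d by 0.48. Over the whole cell cycle and replication lists the median differences were 0.08 and -0.08. The remaining genes with the DM2 effect above were Ier2 (0.91), Igf2r (0.81), Ddit3 (0.80), Phlda1 (0.77), Bax (0.72), Hspb1 (0.61) and Sod1 (0.46).

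The DM2 effect was below the GM effect for Zfp871 (-2.48), Klhl11 (-2.45), Atp7a (-2.32), Lnpep (-2.31) and Zfp971 (-1.95). Among muscle genes it was below for Sntb1 (-2.20), Lmod2 (-2.07), Slc8a1 (-2.04), Casq2 (-1.82), Musk (-1.72), Tead4 (-1.31), Klf5 (-1.25), Kcnj2 (-0.87), Dtna (-0.83) and Pfkm (-0.55). Among genes of metabolism and cell cycle exit it was below for Pdk4 (-1.20), Rbl2 (-1.02), Rb1 (-0.83) and Etfdh (-0.62). Stress and turnover genes in this direction were Atg9a (-1.41), Gclc (-1.12), Psmd1 (-0.84), Hspa4l (-0.70), Atp6v1h (-0.70), Nfe2l2 (-0.68), Atf6 (-0.67), Lamp2 (-0.59) and Ulk2 (-0.54). Mapk6 itself differed by -0.72.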

How the results depend on the processing

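Of the 131 named genes, 128 kept their direction and call with DESeq2, 126 with RSEM counts, 124 with length and GC offsets, 130 with unstranded counts and 131 with RLE size factors, and 104 of 120 on TPM. With MK5-depleted libraries 1 and 2 left out 91 did so, 38 lost their call and 2 reversed. The number of called genes was 4182 (2019 higher) at an adjusted p under 0.01, 3042 (1516 higher, 1526 lower) with libraries 1 and 2 left out, and 4718 to 6209 when 1 library was left out (2399 to 3109 higher, 2319 to 3100 lower). On TPM 1034 were higher and 5779 lower. Against the ERK3-depleted line, where 0 genes were called, there were 191 with DESeq2, 727 with libraries 1 and 2 left out, 1331 without a filter and 0 to 3536 when 1 library was left out. The difference from GM was called for 366 genes at 0.01, 219 with libraries 1 and 2 left out, 1602 with offsets and 933 to 3033 when 1 library was left out. Cycs turned to -0.39 with libraries 1 and 2 left out. Tek, not called, went to -0.12 without MK5-depleted library 1, -0.15 without library 3 and -0.12 without control library 2, and lay at 0.39 at most, without MK5-depleted library 2. Prg4, not called, went to -0.033 with RSEM counts, -0.57 with libraries 1 and 2 left out and -0.12 on TPM. The causes were not tested. Replicate numbers do not pair the samples by the labels, and the correlations of same-numbered deviations were 0.165, 0.0553 and 0.0833. With a replicate block 6954 genes were called against control, 368 against the ERK3-depleted line and 3764 for the difference from GM (6371, 916 and 2912 with offsets too), and 5 of 6 libraries correlated best with their own number. Genes under about 1 CPM, Mapkapk5 among them, rest on few reads.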
